A study of Mus musculus with 36 samples.

Results

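Transcripts of 40 genes that carry out DNA replication and mitosis were followed in 4 kinds of primary mouse cell exposed for 6 h to β-hydroxybutyrate (βOHB), a ketone body, or to butyrate, a short-chain fatty acid of similar size. The genes were listed by name from textbook roles, with earlier results of these data known. The list holds 40 of the 54347 genes in the table, 24 that act in DNA replication and 16 that act in mitosis, and other genes of both processes are given further on. The 36 RNA-seq libraries form 12 groups of 3, in which adipocytes, macrophages, skeletal myotubes and hepatocytes from male mice received PBS as control, 5 mM βOHB or 5 mM butyrate. Adipocytes, macrophages and myotubes came from C57Bl/6 mice and hepatocytes from C57BL/6NHsd mice. Adipocytes were differentiated from stromal vascular cells of inguinal fat pooled from several mice, macrophages from bone marrow in medium conditioned by L929 cells, and myotubes from myoblasts of hindlimb muscle. Hepatocytes were freshly isolated by collagenase perfusion of the liver. Adipocytes and macrophages shared a DMEM-based treatment medium, whereas myotubes were treated in their differentiation medium and hepatocytes in Williams E medium. A difference of myotubes or hepatocytes from another cell type therefore cannot be told apart from a difference between media, nor one of hepatocytes from a difference between these mice. No genetic change was made in any group. No age is given for the animals in the sources used here. No source states that the 3 libraries of a group came from separate animals or cultures, so the P values measure the spread between these libraries, which may be technical.

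In dividing cells the MCM proteins are loaded on DNA by CDC6 and CDT1 and become an active helicase with CDC45 and the GINS complex. DNA polymerases then copy both strands behind it, held to DNA by the PCNA clamp that the RFC complex loads, and RRM1, RRM2, TYMS and TK1 supply the deoxynucleotides. At mitosis CDK1 with cyclins A and B, the Aurora kinases and PLK1 drive entry, kinesins and kinetochore proteins move the chromosomes, and the BUB proteins hold the cell until CDC20 activates the complex that degrades the cyclins. Many replication genes carry E2F sites in their promoters, and many mitosis genes carry a CHR element near a CCAAT box, elements known for transcription that follows the cell cycle. Myotubes and hepatocytes in culture are largely out of the cell cycle, whereas bone marrow macrophages grown with L929-conditioned medium divide. Butyrate is a known inhibitor of histone deacetylases.

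The promoters of 6 members are shown because their genes moved alike, or in opposite directions, across the cell types under butyrate, and they were chosen after the values were seen. *Mcm5* and *Rfc3* were lowered in all 4 cell types, *Rfc4* was raised in all 4, *Cdc20* and *Aurka* were lowered in 3, and *Cdk1* was lowered in macrophages and raised in hepatocytes. The 250 bases before the transcription start are printed 5′ to 3′ on the strand of the gene, from RefSeq on GRCm38.p6, with capitals marking each match to an E2F site (TTTCCCGC, TTTCGCGC, TTTGCCGC or TTTGGCGC), a CHR element (TTTGAA or TTCGAA) or a CCAAT box (CCAAT), on either strand.
*Mcm5* (chr8:75109259-75109508, + strand): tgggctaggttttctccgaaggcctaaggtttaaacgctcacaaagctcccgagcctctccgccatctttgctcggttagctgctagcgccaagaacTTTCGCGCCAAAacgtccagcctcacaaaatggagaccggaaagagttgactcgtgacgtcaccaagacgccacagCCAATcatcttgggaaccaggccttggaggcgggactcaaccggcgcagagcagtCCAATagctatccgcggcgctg
*Rfc3* (chr5:151651209-151651458, - strand): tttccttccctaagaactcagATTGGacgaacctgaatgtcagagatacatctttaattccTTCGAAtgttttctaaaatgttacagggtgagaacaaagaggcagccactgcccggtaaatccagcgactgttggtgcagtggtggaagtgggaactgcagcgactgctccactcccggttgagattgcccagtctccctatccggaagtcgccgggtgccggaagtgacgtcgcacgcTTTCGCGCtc
*Rfc4* (chr16:23127731-23127980, - strand): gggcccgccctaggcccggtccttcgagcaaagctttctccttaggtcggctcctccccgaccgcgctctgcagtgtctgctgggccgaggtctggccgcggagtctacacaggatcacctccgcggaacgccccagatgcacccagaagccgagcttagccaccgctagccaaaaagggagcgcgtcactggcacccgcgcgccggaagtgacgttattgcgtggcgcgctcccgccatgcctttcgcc
*Cdc20* (chr4:118437344-118437593, - strand): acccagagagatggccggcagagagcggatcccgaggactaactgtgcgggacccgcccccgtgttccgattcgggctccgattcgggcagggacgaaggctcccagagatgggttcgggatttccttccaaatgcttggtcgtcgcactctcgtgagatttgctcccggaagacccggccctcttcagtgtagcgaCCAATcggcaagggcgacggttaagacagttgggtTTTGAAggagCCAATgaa
*Aurka* (chr2:172370571-172370820, - strand): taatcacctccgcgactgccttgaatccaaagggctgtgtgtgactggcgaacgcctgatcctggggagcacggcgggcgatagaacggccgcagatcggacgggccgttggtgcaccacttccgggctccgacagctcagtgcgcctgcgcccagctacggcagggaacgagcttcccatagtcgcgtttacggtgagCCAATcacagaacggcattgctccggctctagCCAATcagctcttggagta
*Cdk1* (chr10:69352913-69353162, - strand): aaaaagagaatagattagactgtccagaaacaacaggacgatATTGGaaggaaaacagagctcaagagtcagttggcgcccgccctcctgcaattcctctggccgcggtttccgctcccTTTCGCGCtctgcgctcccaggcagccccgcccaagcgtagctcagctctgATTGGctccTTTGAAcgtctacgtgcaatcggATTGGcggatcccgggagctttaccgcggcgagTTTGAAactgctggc
The *Mcm5* sequence holds an E2F match whose first base lies at -153 from the start, overlapped by a second match on the other strand at -149, and CCAAT boxes at -77 and -22. The *Rfc3* sequence holds an E2F match at -10, a CHR element at -189 and a CCAAT box at -229, and *Rfc4* holds none of these letters. *Cdc20* has a CHR element at -18 with CCAAT boxes at -53 and -8, and *Cdk1* has CHR elements at -71 and -15, CCAAT boxes at -208, -80 and -48 and an E2F match at -131. *Aurka* has CCAAT boxes at -51 and -19, and its CHR element lies at 33, beyond the printed bases.

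Windows of 300 bases, reaching 50 bases past the start, were listed for 34 of the 40 members, 38 windows in all, since some genes have more than 1 start. *Mcm4*, *Gins1*, *Gins2*, *Pole*, *Ccna2* and *Aurkb* had none. An E2F site was present in 9 of 24 windows of replication members (37.5%) and in 1 of 14 windows of mitosis members (7.14%), against 744 of the 32851 windows listed for all genes (2.26%). CHR elements were in 20.8% of the replication windows and 78.6% of the mitosis windows, against 19.2% of all windows. CCAAT boxes were in 54.2%, 92.9% and 37.4% of these windows, and both elements together were in 16.7%, 78.6% and 7.52%. In windows of the other replication genes listed further on the E2F share was 28.3%, and in those of the other mitosis genes the share with CHR and CCAAT together was 50.9%. A match describes letters and not a bound factor.

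The libraries held 18366289 to 23221473 estimated counts, with a median of 22177562. Levels are given as CPM, the count of a gene relative to its library's total, scaled by the TMM factors of edgeR, in the order of replicates 1, 2 and 3 and with the control libraries before the treated ones, and all 40 members passed the filter on low levels (more than 1 CPM in 6 or more libraries), as did 15340 genes in all. A log2 difference is given with its standard error, and a gene is called raised or lowered where the adjusted P of edgeR's quasi-likelihood test over all 15340 genes was below 0.05. Summed over 6 markers each, the adipocyte, macrophage, myotube and hepatocyte lists were highest in the cell type of their name, at 6670.3 CPM or more in each library against 559.0 CPM or less in every library of the other cell types. Some libraries stood apart. The 3 butyrate-treated myotube libraries held hepatocyte markers at 31.6, 559 and 131 CPM, and βOHB-treated myotube replicate 3 held them at 24.1 CPM, whereas the control myotubes held 0.044 CPM or less. Butyrate-treated myotube replicate 3 also lay far from its group. Its chi-square per gene, a measure of the spread between replicates, was 36.97 against replicate 1 and 41.75 against replicate 2. Between replicates 1 and 2 it was 8.575. The control myotubes held macrophage markers at 268, 213 and 108 CPM. Among the adipocytes the mitosis members were lowest in control replicate 1 and highest in βOHB replicate 3. Lists of lymphocyte and of granulocyte and erythroid markers summed to 3.91 CPM or less in every library, and 4 Kupffer cell markers to 6.37 CPM or less outside the macrophages.

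Which cell types held transcripts of the replication and mitosis machinery before any treatment was asked first, since a loss can be seen only where there is a level to lose. Control macrophages were highest for every member. The 24 replication members summed to 1754, 1728 and 1766 CPM in the 3 control macrophage libraries, to 369.8, 460.0 and 494 in adipocytes, 297, 260.3 and 248 in myotubes and 428, 406 and 475 in hepatocytes. The 16 mitosis members differed more, at 2381, 2377 and 2424 CPM in macrophages, 88.0, 172 and 169.9 in adipocytes, 139, 100.5 and 70.3 in myotubes and 26.5, 22.4 and 31.4 in hepatocytes. Macrophages thus exceeded hepatocytes by a log2 ratio of 2.00 for the replication sum and 6.48 for the mitosis sum. All 40 members were called higher in macrophages than in adipocytes (37.9% of all genes were called in that direction), in myotubes (39.3%) and in hepatocytes (41.4%). A bulk library cannot tell fewer cycling cells from less RNA of these genes in each cell.

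**Figure D1:**
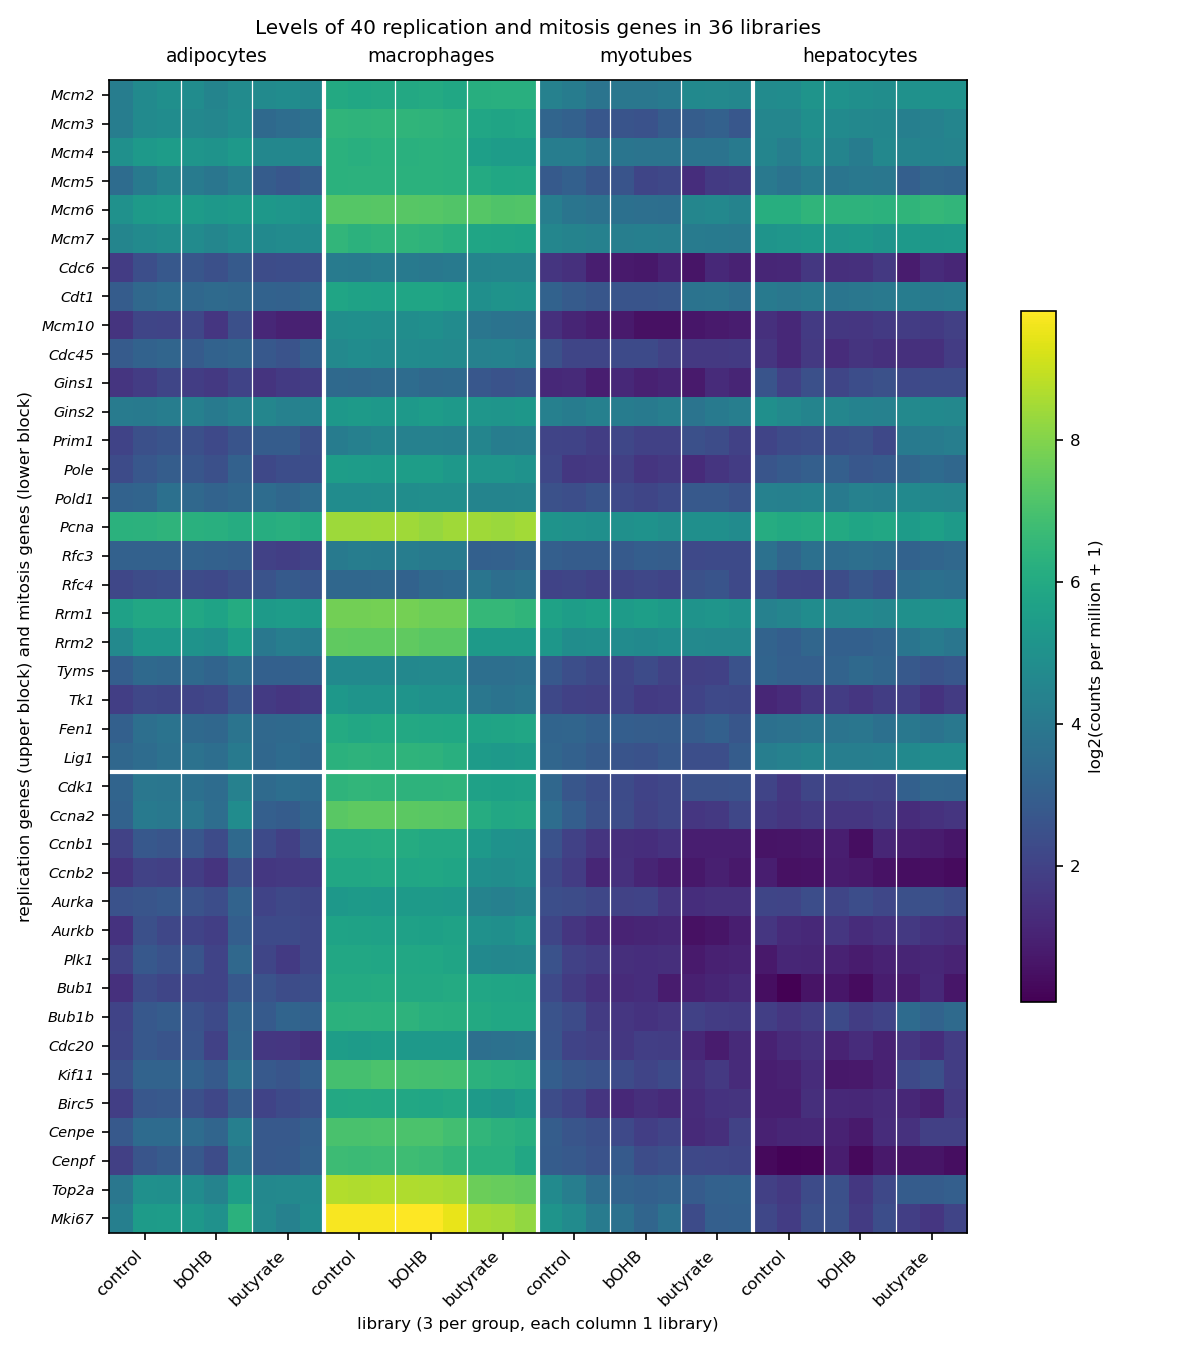
Level of each of the 40 members (rows, replication above mitosis) in each of the 36 libraries (columns, grouped by cell type and treatment), as log2(CPM + 1) on a colour scale from dark (low) to bright (high). The 9 macrophage columns are the brightest for nearly every row, and among the control columns the mitosis rows are darkest in hepatocytes, at sums of 22.4 to 31.4 CPM.

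Adipocytes exceeded myotubes for 25 members (39.0% of all genes were called higher), and the other 15 were not called. The count ranged from 19 without adipocyte control replicate 3 to 33 without adipocyte control replicate 1. Against hepatocytes, adipocytes were higher for 24 members and lower for 8 (41.4% of all genes were called higher and 39.7% lower), and myotubes were higher for 17 and lower for 16 (44.9% and 41.7%). Of the 16 mitosis members adipocytes were above hepatocytes for all and myotubes for 13. Of the 24 replication members adipocytes were above hepatocytes for 8 and below for 8, and myotubes above for 4 (*Cdc45*, *Rrm1*, *Rrm2* and *Tk1*) and below for 16. Per kb of exon, *Pcna*, the sliding clamp, was the highest replication member in each cell type, at 140.0 CPM per kb in macrophages, 33.6 in adipocytes, 27.5 in hepatocytes and 13.1 in myotubes. *Mki67*, which coats mitotic chromosomes and is the usual marker of proliferation, was the highest mitosis member in macrophages (83.8 CPM per kb), adipocytes (3.45) and myotubes (2.54), and *Aurka* was the highest in hepatocytes (1.41). *Cenpf*, a kinetochore protein, was the lowest mitosis member in every cell type, down to 0.0119 CPM per kb in hepatocytes, where 5 mitosis members lay under 1 CPM.

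Butyrate lowered 31 of the 40 members in macrophages (77.5%), 23 in myotubes (57.5%) and 14 in adipocytes (35.0%), and in hepatocytes it raised 15 (37.5%) and lowered 5 (12.5%). The macrophage losses took in 15 of the 16 mitosis members, and the myotube losses 14 of 16. In hepatocytes 6 mitosis members rose, and these 6 were the only ones with an unadjusted P below 0.05. By the same test 33.2% of all genes were lowered and 31.9% raised in macrophages, where 1 member rose. In myotubes 33.4% of all genes were lowered and 33.1% raised, and 4 members rose. In adipocytes 30.3% of all genes were lowered and 30.7% raised, and 5 members rose. The adipocyte share lowered thus lay near that of all genes, and without control replicate 1 the members lowered there numbered 22 and those raised 2. The split was 12 and 2 without butyrate replicate 1, 11 and 3 without butyrate replicate 2 and 13 and 3 without butyrate replicate 3. In hepatocytes 32.4% were lowered and 31.0% raised, the latter near the members' share, and without butyrate replicate 2 the members raised numbered 12 and those lowered 3. The median log2 difference of the mitosis members was -0.89 in macrophages, -1.50 in myotubes, -0.28 in adipocytes and 0.47 in hepatocytes, and that of the replication members was -0.52, -0.28, -0.20 and 0.11, beside a median over all genes of 0.0 in the first 3 cell types and -0.008 in hepatocytes. When libraries were scaled by their totals alone, the median over all genes moved by 0.202 (macrophages) and 0.133 (myotubes), and the replication members were then raised and lowered in numbers of 4 and 12 in macrophages and 6 and 6 in myotubes, against 1 and 16 and 4 and 9 with TMM.

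The summed levels gave the same picture library by library. The mitosis members summed to 1244, 1173 and 1097 CPM in butyrate-treated macrophages and to 34.5, 40.4 and 43.7 CPM in myotubes, all below every control of those cell types, at log2 ratios of -1.03 and -1.39. In adipocytes they summed to 116, 112 and 129 CPM, between the lowest and the higher controls. In hepatocytes they summed to 47.6, 47.9 and 49.6 CPM, all above the controls, at a log2 ratio of 0.85. The replication members summed to 1268, 1217 and 1249.6 CPM in macrophages and 353, 363 and 349 in adipocytes, each below all 3 controls, and to 239, 249 and 238 in myotubes and 457, 474 and 468 in hepatocytes, which overlapped the controls. Macrophage markers fell as well in butyrate-treated macrophages, from 16721 ± 88.4 to 10660.2 ± 269 CPM (mean ± SD, n = 3), with 3 of 6 called lower, while all 6 myotube markers were called higher there, their sum going from 5.93, 12.2 and 7.09 to 18.3, 21.8 and 51.8 CPM. In myotubes 5 of the 6 macrophage markers were lowered and *Mertk* was raised, from a mean of 8.73 to 13.0 CPM, the list summing to 27.5, 76.4 and 39.9 CPM under butyrate. All 5 markers of myoblasts and satellite cells, the dividing precursors of myotubes, were lowered there and summed to 1199.5, 1194 and 1188 CPM in control and 903, 863 and 709 CPM in butyrate-treated libraries. The myotubes' own markers, of which 4 of 6 were lowered, summed to 18993, 23335 and 22722 and 16164, 15678 and 11545 CPM. In hepatocytes the myotube markers summed to 23.8, 25.0 and 24.4 CPM in control and 41.7, 46.0 and 46.3 CPM under butyrate. Of these 6 only *Acta1* was called higher (mean 18.1 to 41.7 CPM), and the means of *Ckm*, *Myh3*, *Tnnt3*, *Mymk* and *Myog* fell. The myoblast and satellite cell markers went from 18.9, 13.8 and 15.8 to 37.3, 33.2 and 36.9 CPM, with 1 of 5 higher and 1 lower. The gene raised was *Itga7* (mean 9.08 to 33.0 CPM) and the gene lowered was *Vcam1* (6.82 to 2.22 CPM). The adipocyte markers went from 39.6, 38.6 and 36.9 to 68.1, 70.2 and 70.0 CPM, with 3 of 6 higher and 1 lower. The Kupffer cell markers went from a mean of 5.94 to 2.24 CPM. The 5 endothelial markers were all lowered in hepatocytes, from 69.5 ± 4.15 to 21.8 ± 1.72 CPM, and in adipocytes 5 of the 6 adipocyte markers were lowered. Endothelial markers went from 188, 215 and 210.1 to 141, 122 and 144 CPM in adipocytes, with 3 of 5 lowered. The part of these shifts in the members' differences was not tested.

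**Figure D2:**
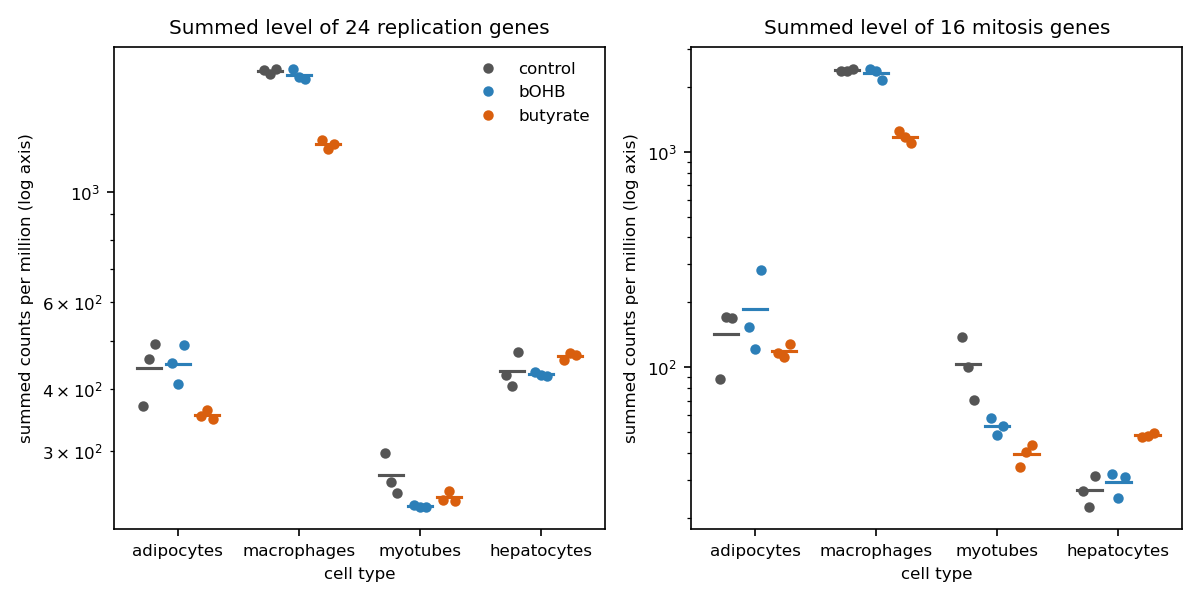
Summed level of the 24 replication members and of the 16 mitosis members in each library, in CPM on a log axis, by cell type and treatment. Points are libraries and bars are group means. Butyrate points lie below the controls in macrophages and myotubes for the mitosis members and above them in hepatocytes.

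Of the 6 MCM helicase subunits, *Mcm5* was lowered in every cell type. *Mcm5* was at 10.4, 15.9 and 20.5 CPM in control and 6.61, 5.61 and 6.78 CPM in butyrate-treated adipocytes, at 77.5, 78.9 and 79.5 against 63.9, 58.0 and 59.4 in macrophages, at 6.19, 7.31 and 5.37 against 1.55, 2.31 and 2.59 in myotubes, and at 15.1, 12.8 and 16.6 against 7.26, 8.82 and 8.41 in hepatocytes. All butyrate libraries lay below all controls in each cell type. The log2 differences were -1.31 ± 0.17 (adjusted P = 6.49e-08 by edgeR), -0.38 ± 0.13 (0.0117), -1.55 ± 0.22 (3.72e-07) and -0.86 ± 0.17 (6.41e-05), of which the macrophage call was lost without butyrate replicate 2 (adjusted P = 0.056). *Mcm2*, which belongs to the same ring, went the other way in myotubes. *Mcm2* was at 19.4, 17.1 and 13.3 CPM in control and 25.1, 24.4 and 23.3 CPM in butyrate-treated myotubes (log2 difference 0.55 ± 0.13, adjusted P = 0.000452), at 17.6, 25.8 and 29.8 against 26.0, 27.2 and 23.6 in adipocytes, at 63.3, 58.4 and 62.0 against 71.4, 73.1 and 72.8 in macrophages and at 26.7, 26.9 and 33.8 against 31.1, 31.8 and 32.1 in hepatocytes. Only the myotube difference was called, and the macrophage libraries did not overlap either (0.24 ± 0.11, adjusted P = 0.0648 by edgeR). *Mcm6* was raised in myotubes (0.62) and hepatocytes (0.23), *Mcm3* was lowered in adipocytes (-1.12), macrophages (-0.63) and hepatocytes (-0.32), *Mcm4* in adipocytes (-0.74) and macrophages (-0.78), and *Mcm7* in macrophages (-0.65) and myotubes (-0.39). In no cell type were all 6 subunits called in the same direction. The hepatocyte call of *Mcm6* was lost without control replicate 1 (adjusted P = 0.132), control replicate 2 (0.139) or butyrate replicate 2 (0.108), and that of *Mcm3* without control replicate 3 (adjusted P = 0.308), butyrate replicate 1 (0.149) or butyrate replicate 2 (0.0929). *Mcm6* was called lower in adipocytes without control replicate 1 (adjusted P = 0.0277), and *Mcm4* lower in myotubes without control replicate 3 (adjusted P = 0.041) or butyrate replicate 3 (0.0283).

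The licensing factors that load the ring were mixed. *Cdt1* was at 55.6, 50.9 and 48.8 CPM in control and 29.3, 32.9 and 32.4 CPM in butyrate-treated macrophages (log2 difference -0.71 ± 0.094, adjusted P = 8.44e-08 by edgeR). In myotubes it was at 7.80, 6.43 and 5.50 CPM in control and 13.0, 13.1 and 11.5 CPM under butyrate, the largest rise of a replication member there (log2 difference 0.93 ± 0.12, adjusted P = 4.08e-08 by edgeR). The groups did not overlap in either cell type, and the directions were opposite. In adipocytes *Cdt1* was at 6.58, 9.48 and 10.6 against 7.94, 7.67 and 8.57 CPM and in hepatocytes at 15.9, 14.5 and 16.4 against 17.1, 15.5 and 16.9 CPM, with overlap and no call in both, although the adipocyte difference was called lower without control replicate 1 (adjusted P = 0.0102). *Cdc6* was the only member called in no cell type, as were 6.86% of all genes. It was at 16.5, 16.3 and 17.6 CPM in control and 21.4, 21.7 and 21.7 CPM in butyrate-treated macrophages, which did not overlap (log2 difference 0.36 ± 0.17, adjusted P = 0.0638 by edgeR). It was at 2.51, 4.39 and 5.83 against 4.09, 4.20 and 4.31 CPM in adipocytes, 1.97, 1.67 and 0.880 against 0.570, 1.29 and 1.03 in myotubes and 1.19, 1.23 and 2.19 against 0.795, 1.44 and 1.2 in hepatocytes, overlapping in each. The myotube difference of -0.64 ± 0.33 was called by edgeR without control replicate 3 (adjusted P = 0.0166) or butyrate replicate 2 (0.0337).

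Among the factors that turn the loaded helicase on, *Cdc45* was at 6.41, 7.93 and 8.57 CPM in control and 5.72, 5.03 and 7.04 CPM in butyrate-treated adipocytes, at 24.3, 26.9 and 25.6 against 19.6, 20.0 and 18.3 in macrophages, at 4.59, 3.30 and 3.39 against 2.28, 2.23 and 2.33 in myotubes and at 2.01, 1.29 and 2.25 against 1.70, 1.73 and 2.52 in hepatocytes. It was lowered in adipocytes (-0.37), macrophages (-0.41) and myotubes (-0.72), and the libraries overlapped in adipocytes, where the call was lost without control replicate 2 (adjusted P = 0.0667), control replicate 3 (0.131), butyrate replicate 1 (0.0648) or butyrate replicate 2 (0.171). *Mcm10*, which helps to start the helicase, had the largest fall of a replication member in adipocytes, from 1.95, 3.40 and 3.25 to 1.23, 0.948 and 0.987 CPM (log2 difference -1.45 ± 0.24, adjusted P = 5.97e-06 by edgeR). *Mcm10* was also lowered in macrophages (-1.14) and in myotubes (-0.79), the latter not without control replicate 1 (adjusted P = 0.194) or butyrate replicate 1 (0.0785), and in hepatocytes it was called higher without control replicate 3 (adjusted P = 0.0195). Of the GINS subunits, *Gins1* was lowered in macrophages (-0.86) and *Gins2* was raised in adipocytes (0.31), not without butyrate replicate 1 (adjusted P = 0.0514). In myotubes *Gins2* was called lower without control replicate 2 (adjusted P = 0.0325) or butyrate replicate 3 (0.0112).

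The clamp loader, which opens the PCNA ring and closes it around DNA, held 2 members called in all 4 cell types, in opposite directions. *Rfc4* was at 3.51, 4.05 and 4.43 CPM in control and 5.03, 6.14 and 5.70 CPM in butyrate-treated adipocytes, at 9.20, 9.12 and 9.39 against 13.5, 11.3 and 12.1 in macrophages, at 3.07, 3.30 and 2.90 against 4.60, 5.14 and 3.76 in myotubes and at 4.33, 3.20 and 3.08 against 10.5, 11.8 and 11.2 in hepatocytes. It was above all controls in each cell type, with log2 differences of 0.49, 0.41, 0.54 and 1.67, and was the single member raised in macrophages. *Rfc3*, a subunit of the same clamp loader, was at 7.58, 7.63 and 7.64 CPM in control and 2.91, 2.68 and 3.10 CPM in butyrate-treated adipocytes, at 16.0, 17.3 and 17.2 against 7.48, 7.72 and 8.67 in macrophages, at 7.20, 6.65 and 6.55 against 3.66, 3.80 and 3.89 in myotubes and at 12.0, 8.67 and 11.7 against 7.79, 8.47 and 9.25 in hepatocytes. It was lowered in all 4, by log2 differences of -1.40, -1.08, -0.84 and -0.35, and only the hepatocyte libraries overlapped.

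*Pcna* was at 68.8, 62.8 and 66.2 CPM in control and 42.2, 48.0 and 41.4 CPM in butyrate-treated hepatocytes (log2 difference -0.59 ± 0.067, adjusted P = 5.69e-09 by edgeR). In adipocytes it was at 78.6, 79.3 and 84.2 against 70.4, 74.5 and 65.9 CPM (log2 difference -0.20 ± 0.064, adjusted P = 0.00768 by edgeR). The libraries did not overlap in either, but the adipocyte call was lost without butyrate replicate 3 (adjusted P = 0.0607). In macrophages *Pcna* was at 333, 331 and 344 against 346, 324 and 349 CPM, a difference of 0.015 with an interval of -0.11 to 0.14, and in myotubes at 33.2, 31.2 and 29.8 against 29.2, 29.8 and 26.4 CPM, where a fall was called without control replicate 3 (adjusted P = 0.0459). *Prim1*, the primase subunit that lays down RNA primers, had the largest rise of any member in hepatocytes, from 3.20, 3.94 and 4.38 to 16.2, 16.5 and 18.0 CPM (log2 difference 2.13 ± 0.17, adjusted P = 1.95e-12 by edgeR). It was also raised in adipocytes (0.47), a call lost without control replicate 1 (adjusted P = 0.166), butyrate replicate 1 (0.0802) or butyrate replicate 2 (0.101), and in myotubes it was called higher without butyrate replicate 3 (adjusted P = 0.0203). The polymerase subunit *Pole* was lowered in adipocytes (-0.43) and macrophages (-0.34) and raised in hepatocytes (0.60), and *Pold1* was lowered in macrophages (-0.36) and raised in hepatocytes (0.26). The *Pole* call was lost in adipocytes without control replicate 2 (adjusted P = 0.109), control replicate 3 (0.292), butyrate replicate 1 (0.144), butyrate replicate 2 (0.0687) or butyrate replicate 3 (0.0679) and in macrophages without control replicate 1 (adjusted P = 0.0606), butyrate replicate 1 (0.0533), butyrate replicate 2 (0.0522) or butyrate replicate 3 (0.102), and the hepatocyte call of *Pold1* was lost without butyrate replicate 1 (adjusted P = 0.0813). *Pold1* was called higher in adipocytes without control replicate 3 (adjusted P = 0.00626) and in myotubes without control replicate 3 (adjusted P = 0.0436) or butyrate replicate 3 (0.0291), and *Pole* was called lower in myotubes without butyrate replicate 3 (adjusted P = 0.0482).

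All 4 genes of deoxynucleotide supply were lowered in macrophages. *Rrm2*, the regulated subunit of ribonucleotide reductase, was at 171, 169 and 168 CPM in control and 40.4, 40.9 and 41.3 CPM in butyrate-treated macrophages, the largest fall of any member (log2 difference -2.05 ± 0.12, adjusted P = 3.44e-15 by edgeR). It was at 24.7, 37.5 and 37.8 against 14.6, 17.8 and 17.1 CPM in adipocytes, 36.4, 28.0 and 28.9 against 24.3, 23.5 and 23.6 in myotubes and 8.09, 6.89 and 8.87 against 13.5, 16.4 and 13.8 in hepatocytes. It was lowered in adipocytes (-1.01) and myotubes (-0.39, a call lost without control replicate 1 (adjusted P = 0.106)) and raised in hepatocytes (0.88), with no overlap in any cell type. The large subunit *Rrm1* followed it in each, at -0.42, -1.24, -0.54 and 0.44. *Tyms*, thymidylate synthase, was at 25.0, 25.2 and 25.1 against 11.6, 11.4 and 12.3 CPM in macrophages (log2 difference -1.09 ± 0.13, adjusted P = 1.18e-08 by edgeR) and at 8.40, 7.13 and 7.27 against 6.04, 4.96 and 5.58 CPM in hepatocytes (log2 difference -0.46 ± 0.16, adjusted P = 0.0145), both without overlap. It was at 6.93, 9.65 and 9.16 against 7.49, 7.42 and 7.54 CPM in adipocytes and 5.78, 4.36 and 3.61 against 2.85, 2.87 and 4.88 CPM in myotubes, which overlapped, and was called lower in myotubes without control replicate 3 (adjusted P = 0.0119) or butyrate replicate 3 (0.000977). The hepatocyte fall of *Tyms* stood beside a rise of the salvage enzyme *Tk1* (0.53), but the *Tk1* call was lost without control replicate 1 (adjusted P = 0.213), control replicate 2 (0.137), butyrate replicate 1 (0.18) or butyrate replicate 3 (0.0866) and the *Tyms* call without control replicate 1 (adjusted P = 0.0718) or butyrate replicate 2 (0.0722). *Tk1* was lowered in macrophages (-1.36) and adipocytes (-0.49), the latter not without control replicate 2 (adjusted P = 0.0874), control replicate 3 (0.0648) or butyrate replicate 2 (0.0845).

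Of the enzymes that finish the lagging strand, *Lig1*, DNA ligase, was at 77.9, 81.5 and 79.9 CPM in control and 42.2, 39.6 and 41.6 CPM in butyrate-treated macrophages (-0.96), at 8.81, 7.62 and 6.29 against 4.43, 4.37 and 6.62 in myotubes (-0.56), at 18.1, 19.3 and 22.1 against 24.8, 27.1 and 27.0 in hepatocytes (0.41) and at 9.09, 10.5 and 12.1 against 9.02, 10.3 and 9.15 in adipocytes. It was lowered in the first 2 cell types and raised in hepatocytes, and only butyrate replicate 3 overlapped the controls in myotubes. *Fen1*, the flap endonuclease, was lowered in myotubes (-0.33), a call lost without control replicate 1 (adjusted P = 0.11), control replicate 2 (0.13), butyrate replicate 1 (0.0931) or butyrate replicate 3 (0.215), and was called lower in adipocytes without control replicate 1 (adjusted P = 0.0203).

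**Figure D3:**
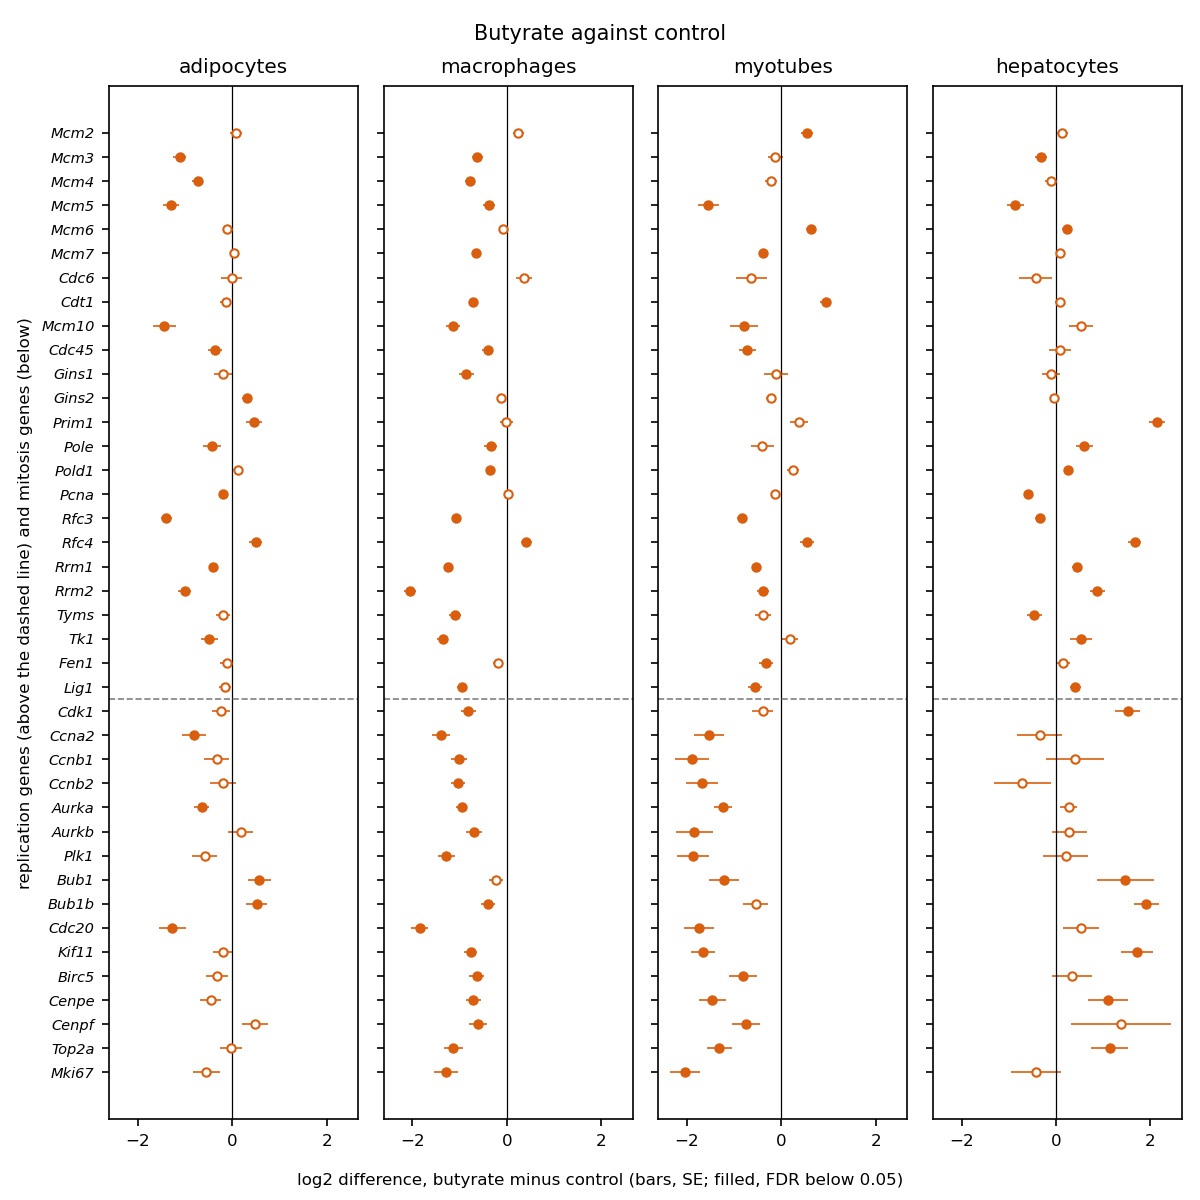
Log2 difference of butyrate against control for each of the 40 members in the 4 cell types, drawn as points with bars of 1 SE, replication members above the dashed line. Filled points passed the adjusted P threshold of 0.05. *Mcm5* and *Rfc3* lie below 0 and *Rfc4* above 0 in all 4 cell types, and *Prim1* and *Bub1b* lie farthest to the right in hepatocytes.

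The mitotic kinases and cyclins were all lowered in macrophages and 6 of 7 were lowered in myotubes. *Cdk1*, the kinase that drives entry into mitosis, was at 84.7, 88.7 and 86.6 CPM in control and 49.7, 48.3 and 49.6 CPM in butyrate-treated macrophages (log2 difference -0.82 ± 0.15, adjusted P = 2.49e-05 by edgeR). In hepatocytes it was at 3.26, 2.15 and 3.31 against 7.47, 8.92 and 8.59 CPM (log2 difference 1.51 ± 0.26, adjusted P = 6.06e-06 by edgeR), so that its libraries separated in both cell types, in opposite directions. In adipocytes *Cdk1* was at 8.40, 14.3 and 14.0 against 9.91, 11.1 and 10.1 CPM and in myotubes at 8.99, 5.50 and 4.31 against 4.64, 4.73 and 4.83 CPM, with overlap in both, and the myotube difference was called without control replicate 3 (adjusted P = 0.0205), the adipocyte difference without control replicate 1 (adjusted P = 0.0372). Its partner *Ccnb1*, cyclin B1, was at 67.7, 69.0 and 70.1 against 38.6, 32.0 and 31.2 CPM in macrophages (-1.02) and at 4.77, 2.95 and 2.02 against 0.854, 0.850 and 0.895 CPM in myotubes (-1.90), without overlap. *Ccnb1* was at 2.99, 5.86 and 5.36 against 3.80, 2.84 and 4.71 CPM in adipocytes and 0.502, 0.553 and 0.650 against 0.848, 0.793 and 0.600 CPM in hepatocytes, with no call. *Ccna2*, cyclin A2, was lowered in 3 cell types, by -0.81 in adipocytes, -1.40 in macrophages and -1.54 in myotubes, the adipocyte call being lost without control replicate 2 (adjusted P = 0.0504), and *Ccnb2* in macrophages (-1.03) and myotubes (-1.68).

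*Aurka*, Aurora kinase A of the spindle poles, was at 4.85, 5.21 and 5.74 CPM in control and 3.11, 3.55 and 3.37 CPM in butyrate-treated adipocytes, at 37.7, 41.0 and 39.1 against 20.5, 18.9 and 21.1 in macrophages, at 4.36, 4.14 and 3.43 against 1.55, 1.74 and 1.74 in myotubes and at 3.32, 3.20 and 4.20 against 4.50, 4.51 and 3.90 in hepatocytes. It was lowered in the first 3 (-0.65, -0.96 and -1.24) without overlap, and the hepatocyte libraries overlapped. *Plk1*, Polo-like kinase 1, was at 58.8, 58.8 and 56.7 against 24.8, 23.4 and 23.6 CPM in macrophages (-1.28) and at 4.86, 2.91 and 2.51 against 0.732, 0.971 and 1.07 CPM in myotubes (-1.88). *Plk1* was at 3.03, 5.73 and 4.81 against 3.30, 2.35 and 3.46 CPM in adipocytes, where it was called lower without control replicate 1 (adjusted P = 0.01) or butyrate replicate 3 (0.0498), and at 0.690, 1.17 and 1.12 against 1.11, 1.24 and 1.08 CPM in hepatocytes. Aurora kinase B, *Aurkb*, was lowered in macrophages (-0.69) and myotubes (-1.85).

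*Cdc20*, the activator of the complex that ends mitosis, had the largest fall of a mitosis member in both adipocytes and macrophages. It was at 3.38, 5.77 and 5.07 CPM in control and 2.17, 2.10 and 1.62 CPM in butyrate-treated adipocytes (log2 difference -1.27 ± 0.28, adjusted P = 0.000233 by edgeR). In macrophages it was at 44.6, 42.5 and 44.0 against 11.5, 12.0 and 12.9 CPM (log2 difference -1.85 ± 0.19, adjusted P = 5.66e-10 by edgeR), and in myotubes at 5.18, 3.17 and 2.82 against 1.22, 0.769 and 1.34 CPM (-1.74). No library overlapped in these 3, whereas in hepatocytes *Cdc20* was at 1.00, 1.41 and 1.77 against 2.07, 1.59 and 2.52 CPM, with overlap. Of the checkpoint proteins that restrain CDC20, *Bub1* and *Bub1b* were raised in hepatocytes and in adipocytes, whereas *Bub3*, which is not among the 40, was lowered in hepatocytes. *Bub1b* was at 2.70, 2.09 and 2.66 CPM in control and 10.2, 7.98 and 10.0 CPM in butyrate-treated hepatocytes, the largest rise of a mitosis member (log2 difference 1.91 ± 0.26, adjusted P = 1.58e-07 by edgeR). *Bub1* was raised in hepatocytes as well (1.47), from levels under 1 CPM, and lost the call without control replicate 1 (adjusted P = 0.0608), control replicate 2 (0.176) or butyrate replicate 2 (0.19). In adipocytes *Bub1* was at 1.69, 4.01 and 3.34 against 5.03, 4.04 and 4.40 CPM (log2 difference 0.57 ± 0.25, adjusted P = 0.0474 by edgeR), with *Bub1b* at 0.51, and neither call held in every fit. The call of *Bub1* was lost without control replicate 1 (adjusted P = 0.326), control replicate 3 (0.0531), butyrate replicate 1 (0.14) or butyrate replicate 3 (0.0779), and that of *Bub1b* without control replicate 1 (adjusted P = 0.313), butyrate replicate 2 (0.147) or butyrate replicate 3 (0.0845), where control replicate 1 was the lowest control of both. *Bub1* was lowered in myotubes (-1.22) and was the single mitosis member without a call in macrophages, while *Bub1b* was lowered in macrophages (-0.39), a call lost without control replicate 1 (adjusted P = 0.0529), control replicate 2 (0.0576), butyrate replicate 2 (0.0817) or butyrate replicate 3 (0.0864), and was called lower in myotubes without control replicate 3 (adjusted P = 0.0122).

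The spindle and kinetochore members and the chromosome structure members were lowered in macrophages and myotubes without exception. *Birc5*, survivin of the chromosomal passenger complex, was at 61.8, 63.1 and 62.0 against 41.0, 36.1 and 42.8 CPM in macrophages (-0.64) and at 4.13, 3.08 and 1.98 against 1.46, 1.82 and 1.92 CPM in myotubes (-0.82, a call lost without control replicate 1 (adjusted P = 0.142) or butyrate replicate 1 (0.0605)). *Birc5* was at 2.73, 5.60 and 5.91 against 3.11, 3.79 and 4.44 CPM in adipocytes and 0.878, 0.861 and 1.66 against 1.27, 0.942 and 2.22 CPM in hepatocytes, overlapping in both, with a call in adipocytes without control replicate 1 (adjusted P = 0.0213). *Mki67* was at 836, 839.8 and 854 CPM in control and 372, 357 and 302 CPM in butyrate-treated macrophages (-1.29). In myotubes *Mki67* was at 33.7, 26.3 and 16.6 against 3.99, 7.16 and 7.47 CPM, the largest fall there (log2 difference -2.04 ± 0.33, adjusted P = 2.66e-06 by edgeR). It was at 18.4, 42.2 and 43.4 against 24.4, 19.5 and 27.2 CPM in adipocytes and 3.51, 2.52 and 4.49 against 2.70, 2.08 and 3.18 CPM in hepatocytes, with overlap and no call, although the adipocyte difference was called without control replicate 1 (adjusted P = 0.00719). *Top2a*, topoisomerase IIα, was at 413, 398 and 418 against 196, 188 and 175 CPM in macrophages (-1.14), 26.0, 17.8 and 10.9 against 6.39, 7.69 and 7.92 in myotubes (-1.31), 2.82, 2.28 and 4.02 against 6.46, 6.64 and 7.15 in hepatocytes (1.14) and 14.4, 30.6 and 29.9 against 23.7, 24.2 and 26.0 in adipocytes. Only the adipocyte libraries overlapped, and *Top2a* rose in hepatocytes (a call lost without control replicate 2 (adjusted P = 0.056)) while *Mki67* was not called there. The mitotic kinesin *Kif11* likewise fell in macrophages (-0.76) and myotubes (-1.67) and rose in hepatocytes (1.71), as did *Cenpe*, a kinesin of the kinetochore (-0.71, -1.47 and 1.11). The hepatocyte call of *Cenpe* was lost without control replicate 1 (adjusted P = 0.0667), butyrate replicate 2 (0.0714) or butyrate replicate 3 (0.0622), and in adipocytes it was called lower without control replicate 1 (adjusted P = 0.0109). *Cenpf* fell in macrophages (-0.61) and myotubes (-0.76), the latter not without control replicate 1 (adjusted P = 0.0809), control replicate 2 (0.059), butyrate replicate 2 (0.0512) or butyrate replicate 3 (0.0577), and was called higher in adipocytes without control replicate 3 (adjusted P = 0.0456).

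Counted over the 4 cell types, 2 members were lowered in all (12.7% of all genes were), 1 was raised in all (12.5%), 6 were lowered in 3 and raised in none (*Cdc45*, *Mcm10*, *Mcm3*, *Cdc20*, *Aurka* and *Ccna2*, with 8.81% of all genes), and 13 were raised in some and lowered in others (19.3%). Leaving out each library in turn kept 29 of the 32 calls in macrophages, 22 of 27 in myotubes, 12 of 20 in hepatocytes and 10 of 19 in adipocytes. The adipocyte mitosis calls, 3 lower and 2 higher, became 8 lower and 0 higher without control replicate 1. Their count of 5 rose to 8 when the replicate numbers entered the fit as a block and to 12 when genes of low counts were kept. Without butyrate replicate 2, the myotube library with the most hepatocyte marker counts, *Cenpf* lost its call (adjusted P = 0.0512) and no other member did.

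Whether the responses themselves differed was tested as the butyrate difference of a cell type minus the mean of those of the other three. The hepatocyte response was higher for 23 members and lower for *Pcna* (22.1% of all genes were called higher and 24.2% lower), and the macrophage response was lower for 20 and higher for *Mcm5*, *Cdc6* and *Pcna* (20.8% of all genes were called lower and 19.0% higher). The myotube response was lower for 14, of which 12 were mitosis members, and higher for *Mcm2*, *Mcm3*, *Mcm6*, *Cdt1* and *Tk1* (21.6% of all genes were called lower and 20.4% higher). The adipocyte response was higher for 5 and lower for 6 (17.0% of all genes were called higher and 15.9% lower), and the count of 11 ran from 6 without adipocyte butyrate replicate 1 to 14 without adipocyte control replicate 1, of which 2 were higher and 12 lower. For *Rrm2* the macrophage response differed from the mean of the others by -1.88 ± 0.15, and the hepatocyte response by 2.02 ± 0.18. For *Cdk1* the same differences were -1.11 ± 0.20 and 2.00 ± 0.28, and for *Cdt1* in myotubes the difference was 1.19 ± 0.13.

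Genes of the same processes outside the 40 members were listed by name as well: 45 other replication genes, 58 other mitosis genes and 28 regulators of the G1/S step and of cell cycle transcription. Butyrate lowered 50 of the 58 other mitosis genes in macrophages and raised 1, lowered 31 and raised 4 in myotubes, lowered 17 and raised 9 in adipocytes, and lowered 3 and raised 27 in hepatocytes. The shares lowered were 86.2%, 53.4%, 29.3% and 5.17% in that order, beside 33.2%, 33.4%, 30.3% and 32.4% of all genes. The adipocyte share thus lay near that of all genes. In hepatocytes 46.6% were raised, beside 31.0% of all genes. Examples were the kinetochore subunit *Nuf2*, from 54.6 ± 1.23 to 17.3 ± 1.65 CPM in macrophages (log2 difference -1.66) and from 2.67 ± 0.643 to 0.633 ± 0.205 CPM in myotubes (-2.07), and the phosphatase *Cdc25b*, which activates CDK1, from 0.548 ± 0.0955 to 3.50 ± 0.57 CPM in hepatocytes (2.65). The kinetochore subunit *Spc24* rose in hepatocytes (2.50), while *Bub3* (-0.55) and *Smc2* (-0.41) fell there. *Pttg1*, securin, was the 1 other mitosis gene raised in macrophages (0.81), where *Pbk* fell (-1.63). *Kif18a* (-1.32) and *Smc2* (-1.09) fell and *Ncaph* (1.10) and *Prc1* (0.86) rose in adipocytes, and in myotubes *Kif2c* fell (-2.05) and *Racgap1* (1.39) and *Ncaph* (1.09) rose.

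Of the other replication genes butyrate raised 17 and lowered 12 in both adipocytes and myotubes, raised 14 and lowered 18 in macrophages, and raised 27 and lowered 6 in hepatocytes. The shares of the 45 were 37.8% and 26.7% in adipocytes and myotubes, beside 30.7% and 30.3% of all genes in adipocytes and 33.1% and 33.4% in myotubes, while 31.1% were raised in macrophages and 13.3% lowered in hepatocytes. *Chaf1b*, a subunit of the chromatin assembly factor that deposits histones behind the fork, was among the 2 largest called rises in all 4 cell types, at log2 differences of 1.12, 0.86, 2.60 and 1.76. In myotubes it went from 0.998 ± 0.136 to 6.07 ± 0.223 CPM. The other largest called rises were *Cdc7* in adipocytes (1.33), *Donson* in macrophages (1.15), *Gmnn*, the inhibitor of CDT1, in myotubes (1.62) and *Ticrr* in hepatocytes (1.84). The largest falls among the genes called were *Dscc1* (-2.63) and *Clspn* (-1.11) in adipocytes, *Dscc1* (-1.01) and *Dbf4* (-0.96) in macrophages, *Clspn* (-1.39) and *Rpa2* (-0.64) in myotubes and *Dna2* (-1.19) and *Pole4* (-0.84) in hepatocytes.

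Among the regulators 9 rose and 10 fell in adipocytes, 4 and 15 in macrophages, 4 and 11 in myotubes and 12 and 8 in hepatocytes. The adipocyte shares of 32.1% and 35.7% lay near the 30.7% and 30.3% of all genes. In macrophages 14.3% were raised and 53.6% lowered, beside 31.9% and 33.2% of all genes. In myotubes the shares were 14.3% and 39.3%, beside 33.1% and 33.4%, and in hepatocytes 42.9% and 28.6%, beside 31.0% and 32.4%. The shares lowered in myotubes and hepatocytes thus lay near those of all genes. *Foxm1*, the transcription factor of many mitosis genes, was lowered from 9.30 ± 1.94 to 5.11 ± 1.09 CPM in adipocytes (-0.86), from 86.2 ± 1.95 to 38.1 ± 1.50 in macrophages (-1.18) and from 7.92 ± 1.43 to 2.95 ± 0.543 in myotubes (-1.43). In hepatocytes *E2f2* rose from 2.68 ± 0.561 to 24.1 ± 0.649 CPM (3.16) and *E2f8* from 3.64 ± 0.594 to 15.6 ± 1.17 (2.10), while *Cdk6* fell from 178.3 ± 22.0 to 50.1 ± 3.79 (-1.83) and *E2f3* fell as well (-0.62). *E2f2* (1.46) and *Tfdp2* (0.90) rose and *Lin9* (-1.03) fell in adipocytes. The largest called rises in macrophages and myotubes were cyclin genes of G1 and of the G1/S step, in macrophages with *Ccnd3* at 1.44 beside *E2f5* at 0.57 and a fall of *E2f7* (-1.26), and in myotubes, with *Ccne1* at 1.52 beside *E2f1* at 0.55 and a fall of *Mybl2* (-1.52).

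βOHB was given at the same dose and time as butyrate, against the same control libraries, so the 2 sets of differences are not independent. In macrophages, adipocytes and hepatocytes it left 0 of the 40 members called by edgeR, limma-voom or DESeq2. The share of all genes called was 0.0% in macrophages, 0.00652% in adipocytes and 0.00652% in hepatocytes. At an unadjusted P below 0.05 edgeR gave 0, 5 and 4 members, and when genes of low counts were kept, 4 members were called in adipocytes. No share of all genes is given at that threshold or without the filter, so these counts have no background beside them. The log2 difference was positive for 35 of the 40 members in adipocytes, among them all 16 mitosis members (median 0.37), and negative for 31 of the 40 in macrophages. The median over all genes was 0.002 in adipocytes and 0.0 in macrophages. The median half-width of the members' 95% intervals on the log2 scale was 0.266 in macrophages, 0.352 in adipocytes and 0.393 in hepatocytes. Smaller differences of a typical member thus could not be told from 0 even at an unadjusted P of 0.05. Larger differences went uncalled as well, up to 0.747 in adipocytes and 1.677 in hepatocytes. The mitosis members summed to 2421, 2379 and 2151 CPM in βOHB-treated macrophages, 31.8, 24.8 and 30.9 in hepatocytes and 154, 122 and 282 in adipocytes, where replicate 3 was above all controls and also held the most fibroblast and preadipocyte marker counts (9503.0 CPM, against 5591.6 to 7418.2 CPM in the other 8 adipocyte libraries). Its part in the adipocyte values was not tested, and without it the log2 ratio of the mitosis sums went from 0.38 to -0.057.

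In myotubes βOHB lowered 7 members, the only ones called (2.56% of all genes were called lower). *Top2a* was at 26.0, 17.8 and 10.9 CPM in control and 7.99, 7.29 and 8.16 CPM in βOHB-treated myotubes (log2 difference -1.22 ± 0.27, adjusted P = 0.00646 by edgeR). *Mki67* was at 33.7, 26.3 and 16.6 CPM in control and 12.0, 8.49 and 12.2 CPM under βOHB (log2 difference -1.22 ± 0.31, adjusted P = 0.0199 by edgeR). *Mcm10* was at 1.70, 1.14 and 0.880 against 0.735, 0.444 and 0.443 CPM (log2 difference -1.19 ± 0.33, adjusted P = 0.0399 by edgeR). All 3 βOHB libraries lay below all 3 controls for each of these genes. *Lig1* was at 8.81, 7.62 and 6.29 against 5.14, 4.75 and 5.85 CPM (log2 difference -0.53 ± 0.15, adjusted P = 0.0417 by edgeR), and *Ccna2* at 10.9, 7.05 and 4.71 against 4.04, 2.98 and 3.50 CPM (log2 difference -1.10 ± 0.31, adjusted P = 0.0455). *Birc5* was at 4.13, 3.08 and 1.98 against 1.29, 1.60 and 1.37 CPM (log2 difference -1.10 ± 0.31, adjusted P = 0.0468 by edgeR), and *Plk1* at 4.86, 2.91 and 2.51 against 1.61, 1.55 and 1.64 CPM (log2 difference -1.09 ± 0.31, adjusted P = 0.0472). These 4 also did not overlap, and for all 7 genes control replicate 1 was the highest control and control replicate 3 the lowest.

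**Figure D4:**
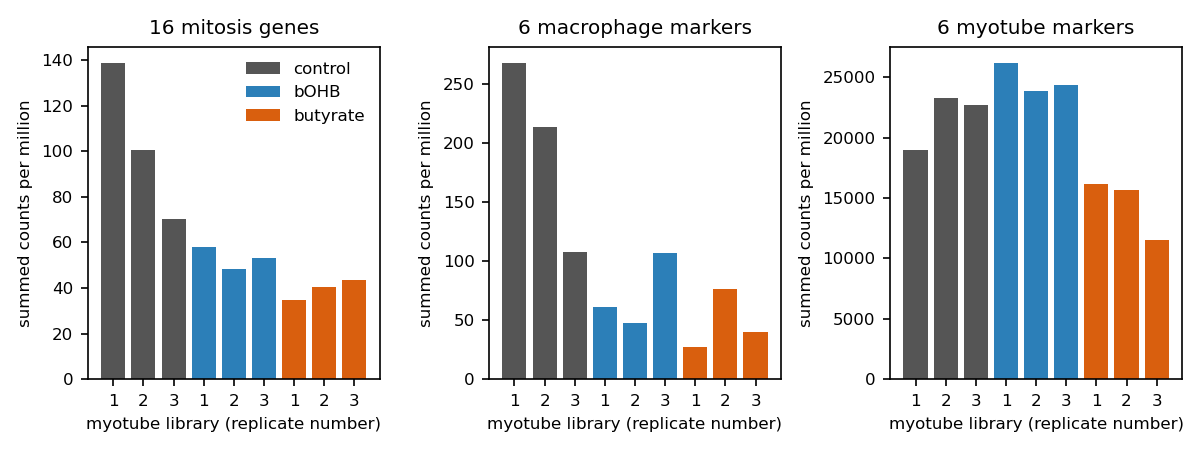
Summed level of the 16 mitosis members, of 6 macrophage markers and of 6 myotube markers in each of the 9 myotube libraries, in CPM from 0, with 1 bar per library. The mitosis bars of the controls run from 70.3 to 139 CPM and the macrophage marker bars from 108 to 268 CPM, in both cases highest in replicate 1.

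The myotube calls under βOHB depended on single libraries, both control and βOHB-treated. The count of 7 became 0 without control replicate 1, 1 without control replicate 2 and 14 without control replicate 3, and it became 3, 0 and 3 without βOHB replicates 1, 2 and 3. It was 0 with limma-voom, 17 with DESeq2, 0 when only the 9 myotube libraries were fitted and 23 with no filter on low counts, and 25 members had an unadjusted P below 0.05 by edgeR. Shares of all genes are not given for these settings, so the counts cannot be set against a background. The direction was shared: 38 of the 40 members had a negative log2 difference, with medians of -0.97 for the mitosis and -0.23 for the replication members beside 0.023 for all genes. The mitosis sums were 139, 100.5 and 70.3 CPM in control and 58.0, 48.2 and 53.3 CPM in βOHB-treated myotubes, all 3 below the controls. Macrophage markers moved the same way, at 268, 213 and 108 CPM in control and 61.1, 47.2 and 107 CPM in βOHB-treated libraries, with 5 of 6 called lower (*Adgre1*, *Cd68*, *Csf1r*, *Itgam* and *Lyz2*). Control replicate 3, the lowest control for the mitosis sum, was also the lowest for these markers. The myotube markers summed to 26211, 23861 and 24377 CPM under βOHB and the myoblast and satellite cell markers to 1262, 1253 and 1262 CPM, both above all controls, with no marker of either list called. Within the myoblast and satellite cell list the means of *Itga7* (845.7 to 913.7 CPM) and *Cdh15* (283.2 to 287.0) rose. The means of *Pax7* (15.2 to 13.2 CPM), *Myf5* (30.4 to 27.3) and *Vcam1* (19.2 to 18.3) fell. The part of the macrophage markers in the members' differences was not tested.

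**Figure D5:**
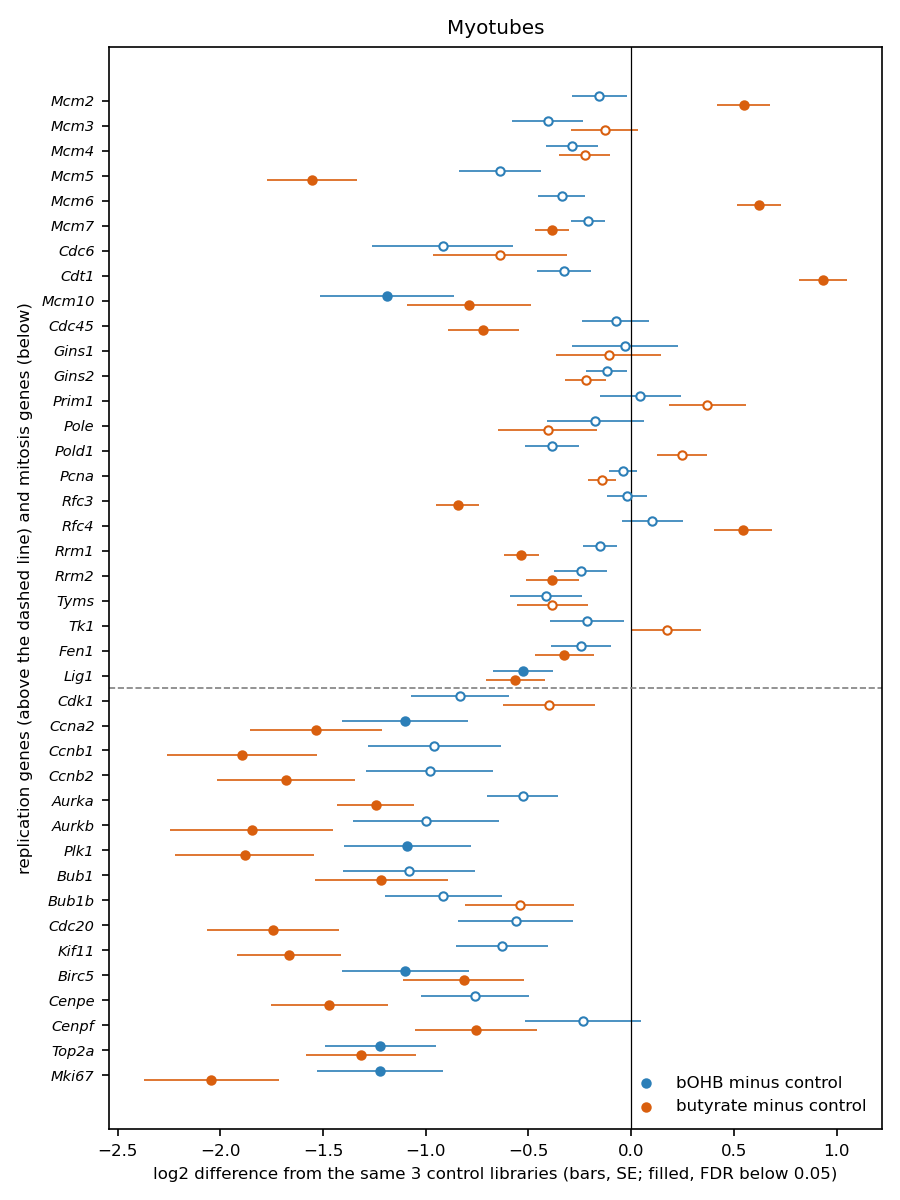
Log2 differences of the 40 members (rows) from the shared control libraries in myotubes, for βOHB (blue) and butyrate (orange), with bars of 1 SE and filled points for an adjusted P below 0.05. The βOHB points of all 16 mitosis members lie left of 0, and *Cdt1*, *Mcm6* and *Mcm2* lie farthest right for butyrate, at 0.93, 0.62 and 0.55.

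Other mitosis genes were called lower under βOHB in myotubes in 7 cases of 58 (12.1%, against 2.56% of all genes): *Nuf2* (-1.71), *Kif22* (-1.12), *Pbk* (-1.39), *Ndc80* (-1.19), *Ncapg2* (-0.70), *Kif23* (-0.97) and *Kif15* (-1.22). Of the 28 regulators *Mybl2*, a transcription factor that binds mitosis promoters, was lowered from 1.30 ± 0.434 to 0.404 ± 0.0448 CPM (-1.67), and the 45 other replication genes had no call by edgeR and 6 with an unadjusted P below 0.05. As a test of the difference between cell types, the βOHB response of myotubes was lower than the mean of the other three for *Top2a* (-1.36) and *Mcm10* (-1.35) (1.0% of all genes were called lower). That count of 2 ran from 0 without myotube control replicate 1 to 14 without myotube control replicate 3, was 0 with limma-voom, 16 with DESeq2 and 19 when genes of low counts were kept.

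The 2 compounds differ by a hydroxyl group on the carbon at position β, and at the same 5 mM and 6 h they were compared directly. Butyrate was below βOHB for 31 members and above it for 2 in macrophages (32.8% of all genes were called lower and 31.8% higher), below for 21 and above for 2 in adipocytes (29.5% and 30.0%), below for 10 and above for 5 in myotubes (32.9% and 33.1%), and below for 4 and above for 13 in hepatocytes (33.0% and 30.5%). Without βOHB replicate 3 the adipocyte split was 13 below and 3 above. Above βOHB were *Cdc6* and *Rfc4* in macrophages, *Rfc4* and *Prim1* in adipocytes and *Mcm2*, *Mcm6*, *Cdt1*, *Rfc4* and *Pold1* in myotubes. Below it in hepatocytes were *Mcm5*, *Tyms*, *Pcna* and *Rfc3*. The macrophage call of *Cdc6* was lost without βOHB replicate 2 (adjusted P = 0.0568) and the myotube call of *Rfc4* without butyrate replicate 2 (adjusted P = 0.0599). The adipocyte call of *Prim1* was lost without βOHB replicate 1 (adjusted P = 0.0832), βOHB replicate 2 (0.199), butyrate replicate 1 (0.157) or butyrate replicate 2 (0.188). Scaling by library totals alone changed the split in myotubes to 6 below and 9 above and in adipocytes to 16 and 4, and relative log scaling gave 7 and 6 in myotubes. *Rrm2* was at 171, 161 and 159.9 CPM in βOHB-treated and 40.4, 40.9 and 41.3 CPM in butyrate-treated macrophages (log2 difference -2.00 ± 0.12, adjusted P = 5.85e-15 by edgeR). *Prim1* was at 4.36, 4.63 and 3.57 against 16.2, 16.5 and 18.0 CPM in hepatocytes (log2 difference 2.01 ± 0.16, adjusted P = 4.02e-12 by edgeR). *Cdt1* was at 5.14, 5.20 and 5.37 against 13.0, 13.1 and 11.5 CPM in myotubes (log2 difference 1.26 ± 0.12, adjusted P = 2.01e-10 by edgeR), the 3 libraries of each compound lying apart for all 3 genes. For *Mki67* in myotubes both compounds lay below the controls, at 12.0, 8.49 and 12.2 CPM with βOHB and 3.99, 7.16 and 7.47 CPM with butyrate (log2 difference -0.82 ± 0.35, adjusted P = 0.0411 by edgeR). The call between the compounds was lost without βOHB replicate 1 (adjusted P = 0.102), βOHB replicate 3 (0.11) or butyrate replicate 1 (0.185) and with limma-voom. For *Top2a* in myotubes, at 7.99, 7.29 and 8.16 against 6.39, 7.69 and 7.92 CPM, no difference was called between the compounds, and the 95% interval of butyrate against βOHB ran from -0.70 to 0.51 on the log2 scale. *Mcm10* was likewise not called, with an interval of -0.34 to 1.14.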

How the data were processed

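RNA was sequenced from 36 libraries, 3 in each of 12 groups of cell type and treatment. Per the labels and the study's methods, the authors quantified transcripts with Salmon 1.2.1 against a mouse transcriptome on GRCm38.p6 and deposited expected counts (estimated counts that need not be whole) per gene, of which 55.6% of the positive values were whole. All libraries were mapped to groups by their own titles. The estimated counts were rounded, genes with CPM above 1 in at least 6 libraries were kept (15340 of 54347), and 1 model with 12 group means was fitted to all 36 libraries with edgeR 4.0.16 in R 4.3.3 (TMM factors, the quasi-likelihood test, and P values adjusted by Benjamini-Hochberg across the genes kept, threshold 0.05). CPM values were computed from these counts with the TMM factors. The methods describe scaling for transcript length and library size during import with tximport. Because many deposited values were whole (exactly equal to the nearest integer), they were taken as unscaled, but no source used here states whether they carry that scaling, which could change levels and differences. Levels of different genes were compared per kb of exon only. Depth was 18366289 to 23221473 counts per library, and replicates differed by more than sampling noise in all 36 pairs (chi-square per gene 2.677 to 41.7).

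The 40 members and all gene lists were chosen with earlier results of these data known. All 40 are accounted for. Per-library values are printed for *Mcm2*, *Mcm5*, *Cdc6*, *Cdt1*, *Cdc45*, *Pcna*, *Rrm2*, *Tyms*, *Lig1*, *Mki67*, *Top2a*, *Cdk1*, *Ccnb1*, *Cdc20*, *Plk1*, *Birc5* and *Aurka* and for the largest rise and fall in each list against control, and the heat map holds every library. Members that went against most of their list, or against most members called, were named, as were all calls of a comparison with 10 or fewer, and of the other gene lists the 2 largest rises and 2 largest falls among those called. Marker lists covered adipocytes, macrophages, myotubes, hepatocytes, myoblasts and satellite cells, fibroblasts and preadipocytes, endothelial cells, Kupffer cells, lymphocytes, and granulocytes with erythroid cells.

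Alternatives were limma-voom (limma 3.58.1), DESeq2 1.42.0, RLE scaling, library totals alone, no filter, more than 20 counts in 6 libraries, edgeR's filterByExpr, a replicate block, only the libraries of the cell type, each library left out, and an unadjusted P below 0.001. The replicate numbers paired the libraries by their deviations in 1 of 12 comparisons, βOHB with butyrate in macrophages (correlations 0.116 to 0.22 for the 3 pairs), so no block entered the fit. On simulated counts with 200 changed genes among 15340, edgeR recovered 89.5% in the myotube comparison with 6 false calls and 90.5% in the macrophage comparison with 6. In the data far more genes were called under butyrate, with 33.4% lowered and 33.1% raised in myotubes. The simulated rates therefore need not hold for the real comparisons. Promoter windows and motif matches were read from RefSeq on GRCm38.p6.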

Additional observations from a re-analysis of the deposited data

Results flagged for a closer look

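The responses below were flagged because a test of the difference itself, the response of a cell type minus the mean of the responses of the other cell types in edgeR's fit, passed the threshold. Values are differences of log2 differences. The cell types share no control libraries, but each value uses the libraries of every cell type, so the calls of the cell types are not independent. A higher response can stand for a rise or for a smaller fall than in the others. For butyrate, 11 members were called for adipocytes (5 higher and 6 lower, beside 17.0% and 15.9% of all genes), 23 for macrophages (3 and 20, beside 19.0% and 20.8%), 19 for myotubes (5 and 14, beside 20.4% and 21.6%) and 24 for hepatocytes (23 and 1, beside 22.1% and 24.2%).

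Among the replication genes the adipocyte response was lower for *Rrm2* (-0.49) and higher for *Tyms* (0.45). The macrophage response was lower for *Rrm2* (-1.88), *Cdt1* (-1.01), *Lig1* (-0.85) and *Tyms* (-0.75) and higher for *Mcm5* (0.86), *Cdc6* (0.72) and *Pcna* (0.33). The myotube response was higher for *Cdt1* (1.19) and *Mcm2* (0.41) and lower for *Mcm5* (-0.70) and *Cdc45* (-0.49). The hepatocyte response was higher for *Rrm2* (2.03), *Lig1* (0.97) and *Cdc45* (0.58) and lower for *Pcna* (-0.48).

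Among the mitosis genes the macrophage response was lower for *Cdk1* (-1.11), *Top2a* (-1.07), *Cdc20* (-1.02) and *Aurka* (-0.42). The myotube response was lower for *Ccnb1* (-1.58), *Plk1* (-1.33), *Top2a* (-1.31), *Mki67* (-1.29) and *Aurka* (-0.80). The hepatocyte response was higher for *Cdc20* (2.16), *Cdk1* (2.00), *Top2a* (1.97), *Plk1* (1.45) and *Aurka* (1.22). For βOHB, 2 members were called for myotubes, among them *Top2a* (-1.36), and that count was 0 without myotube control replicate 1.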

How the results depend on the processing

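Of 7200 gene values recomputed under alternatives, 6757 kept their side of the threshold, 262 lost the call and 181 gained it. With a call in either fit, 0 changed direction. A change of direction without a call in either fit was not counted. At an unadjusted P below 0.001 the counts under butyrate against control were 8 (replication) and 2 (mitosis) in adipocytes and 6 and 3 in hepatocytes. The same threshold gave 2 under βOHB in myotubes, 15 and 9 for butyrate against βOHB in adipocytes and myotubes, 15 for control adipocytes against myotubes, 4, 15 and 9 for the butyrate responses of adipocytes, macrophages and myotubes, and 4 for the βOHB response of myotubes. With no filter on low counts 12 mitosis genes were called under butyrate and 4 members under βOHB in adipocytes, 23 under βOHB in myotubes and 19 for its response. Fits to only the libraries of the cell type gave 2 mitosis genes in adipocytes and 0 members under βOHB in myotubes. For βOHB in myotubes and for its response limma-voom gave 0 and 0, and DESeq2 17 and 16. The cause of these differences was not tested. Shares of all genes are given only for the main fit at an adjusted P below 0.05, so the counts under other thresholds and settings have no background beside them.

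With the replicate block 8 adipocyte mitosis genes were called under butyrate instead of 5, and no other count moved by over 1.5 times. In 2 of 12 comparisons every library correlated best with its own number.

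Leaving out 1 library at a time gave 4 to 8 adipocyte mitosis genes, 0 to 14 members under βOHB in myotubes, 6 to 14 for the adipocyte butyrate response and 0 to 14 for the myotube βOHB response. With library totals alone the log2 ratio of the summed levels in butyrate-treated over control macrophages was -0.27 for replication and -0.81 for mitosis, and macrophages over hepatocytes 2.25 and 6.73. Per kb of exon the macrophage replication ratio was -0.42 and the macrophage over hepatocyte mitosis ratio 5.94. Library totals alone shifted the median of all genes by up to 0.325 between cell types and by 0.202 and 0.133 under butyrate in macrophages and myotubes, and split the adipocyte butyrate response 3 higher and 7 lower. In control hepatocytes 5 mitosis genes lay under 1 CPM and so rested on few counts, and no alternative varied the depth.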
